A study of Homo sapiens with 4 samples.

Results

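Interferon-stimulated genes (ISGs) and their regulators were examined in RNA-seq data of HaCAT, an immortalised keratinocyte line of human origin, after knockdown of the m6A demethylase ALKBH5. The genes were taken by symbol from a list of 45 names, and all 45 were found among the 58735 genes of the deposited tables. Both groups were transfected with siRNA by lipofection and were otherwise cultured alike. The siControl group (genotype labelled WT) received a control siRNA and the siALKBH5 group (labelled ALKBH5 knockdown) an siRNA against ALKBH5, with 2 libraries each. No interferon, virus or other stimulus is named for any sample, and both groups share the transfection, with no untransfected sample analysed here. Nothing in the labels says that the 2 libraries of a group came from separate cultures, so the p-values measure only the spread between these libraries, which may be technical.

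Interferons are secreted alarm signals of infected cells. Type I interferons bind the receptor pair IFNAR1 and IFNAR2, whose kinases JAK1 and TYK2 phosphorylate STAT proteins such as STAT2, which joins IRF9 in a complex that binds the interferon-stimulated response element (ISRE) of target genes. The products of these genes sense viral RNA, degrade it, block its translation or trap virus particles, and several of them, such as the RNA sensors and IRF7, feed back on interferon production. Keratinocytes, the main cells of the epidermis, respond to interferons and also have an interferon of their own, IFNK.

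The ISRE core, GAAA followed by any 2 bases and GAAA, was searched on both strands of RefSeq promoters (GRCh38.p14, 250 bases before to 50 bases after each listed start). Of the 45 genes, 35 matched an entry in this table, DDX58 under its newer symbol RIGI, and 23 of these held the core, against 4.38% of the 27305 genes in the table. IFNAR2, DHX58, IRF3, IRF7, IFIT2, IFITM2, MX2, OAS2, OASL and USP18 were the others. The gamma-activated site, TTCNNNGAA, was in 10 of the 35, against 9.38% of all genes. A match describes the letters of this window and no factor was measured there. The sites below belong to members whose counts differed between the groups, or, for ISG15 and MX1, to well-known ISGs whose counts did not pass the test. Each is written 5′ to 3′ on the strand of its gene, with the ISRE core in capitals in either orientation.

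TLR3 (chr4:186069142-186069171, plus strand): caagctttacTTTCACTTTCgagagtgccg

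IFIT3 (chr10:89327865-89327894, plus strand): tttaaattagTTTCACTTTCcagtttcctc

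IFIT5 (chr10:89414513-89414542, plus strand): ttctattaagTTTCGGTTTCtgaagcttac

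DTX3L (chr3:122564322-122564351, plus strand): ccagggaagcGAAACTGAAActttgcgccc

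PARP9 (chr3:122564322-122564351, minus strand): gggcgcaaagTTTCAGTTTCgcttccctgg

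PARP14 (chr3:122680800-122680829, plus strand): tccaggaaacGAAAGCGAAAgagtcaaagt

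IFI6 (chr1:27672329-27672358, minus strand): ggagagagggGAAAATGAAActctgcagag

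IFI6 (chr1:27672288-27672317, minus strand): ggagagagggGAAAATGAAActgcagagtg

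IFI27 (chr14:94110631-94110660, plus strand): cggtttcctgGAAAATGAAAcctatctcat

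OAS3 (chr12:112938452-112938481, plus strand): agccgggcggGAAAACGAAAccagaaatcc

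SAMD9 (chr7:93118096-93118125, minus strand): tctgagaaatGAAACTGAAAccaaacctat

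ISG15 (chr1:1013380-1013409, plus strand): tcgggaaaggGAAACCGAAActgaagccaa

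MX1 (chr21:41420559-41420588, plus strand): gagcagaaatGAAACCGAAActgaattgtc

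The DTX3L and PARP9 lines are the 2 strands of the same 30 bases, since these genes are divergent and share a start region. Further cores of IFIT3, IFIT5, IFI6, IFI27, OAS3, ISG15 and MX1 are not shown. Of the 14 genes that were lower in siALKBH5, 12 had a promoter in the table and 8 held the core, as did both of the higher genes and 12 of the 20 genes that were not called, so the core was found in every class.

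The 4 libraries held between 16017502 and 18837807 counts on genes. ALKBH5 was at 93.8 and 87.6 CPM in siControl and at 51.2 and 49.6 CPM in siALKBH5 (CPM are counts scaled to a common library size, after TMM normalisation), a log2 fold change of -0.85 (adjusted p = 6.4e-15). Keratinocyte identity was checked on 14 markers, all of them detected, which summed to between 35066 and 36946 CPM. Of these, 7 were higher in siALKBH5 and 5 lower (KRT15, KRT17, TP63, ITGA6 and ITGB4), from KRT5 at 160% to KRT15 at 71.8% of control. Of the 33 markers of fibroblasts, leukocytes, plasmacytoid dendritic cells, melanocytes and endothelial cells, 19 had 3 counts or fewer in every library, and COL1A2, PDGFRA, CD3D, CLEC4C, TYR and KDR were at 0 in all 4. The summed CPM of these lists went in different directions. The plasmacytoid dendritic cell list went from 19.2 and 20.1 to 12.5 and 13.7 (IL3RA and TCF4 lower), and the fibroblast list from 22.0 and 22.8 to 18.8 and 19.6 (DCN and LUM lower). The leukocyte list went from 2.48 and 3.56 to 4.44 and 3.95 (CD14 higher), and the endothelial list from 32.5 and 32.5 to 35.0 and 35.5 (VWF higher and CDH5 lower). The melanocyte list was at 14.1 and 13.7 and then at 11.9 and 14.2. Their part in the results below was not tested.

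Levels were first compared per length, as FPKM (counts divided by the listed gene length and by the library total). In siControl, 12 members were at or above 10 FPKM, 21 lay between 1 and 10, and 12 were under 1. Among the last, IFNAR2, IRF9 and XAF1 share 83.2%, 48.4% and 38.3% of their exon bases with other genes, so their levels are uncertain. The interferon-induced transmembrane proteins, which hinder the entry of enveloped viruses, led the order. IFITM3 was at 162 and 166 FPKM in siControl and 162 and 164 FPKM in siALKBH5. IFITM2 followed with 52.4 and 50.9 FPKM in siControl and IFITM1 with 46.7 and 47.0 FPKM, and together the 3 genes made up 51.4% of the summed siControl FPKM of the members. Next came UBE2L6, the E2 enzyme that passes on the ubiquitin-like protein ISG15, at 26.8 ± 1.36 FPKM (SD, n = 2), DTX3L at 21.9 ± 1.04 FPKM (SD, n = 2) and ISG15 itself at 19.7 ± 0.0623 FPKM (SD, n = 2).

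**Figure D1:**
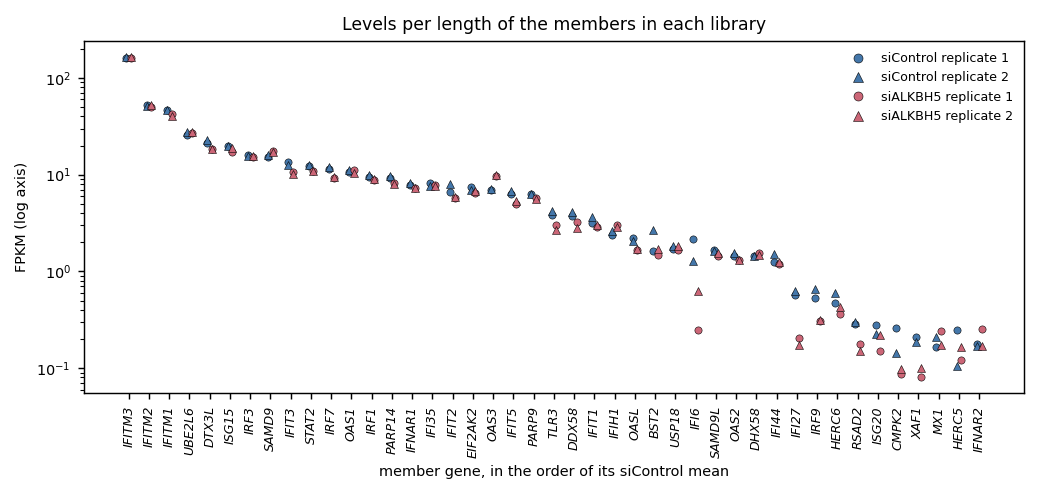
FPKM (log axis) of the 43 members with enough counts for the test, in the order of their siControl mean, with 1 point per library (circles replicate 1, triangles replicate 2). Levels ran from 162 and 166 FPKM of IFITM3 in siControl down to under 1 FPKM for genes such as IFI27 and MX1.

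Several emblematic ISGs were near the bottom of the order. RSAD2 (viperin, which makes a chain-terminating nucleotide) was at 0.292 FPKM in siControl, MX1 (a dynamin-like GTPase against RNA viruses) at 0.187 FPKM, and IFI44L and MX2 at 0.0143 and 0.00214 FPKM. MX2 had 0, 1, 2 and 0 counts over siControl replicates 1 and 2 and siALKBH5 replicates 1 and 2, and IFI44L had 2, 3, 0 and 1. Both genes were at the floor of 3 counts in each group and were not tested. Of the 44 neighbouring pairs in the order, 22 had overlapping siControl libraries, so the order within such stretches, such as from IFNAR1 to OAS3 at 8.06 to 7.06 FPKM, is not resolved.

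The question of the comparison was how these genes differ between siALKBH5 and siControl. The labels do not say which siRNA against ALKBH5 was used. Effects of the siRNA sequence itself cannot be told apart from those of lowered ALKBH5. Of the 43 members tested, 14 were lower in siALKBH5, 2 were higher and 27 did not pass the test at an adjusted p under 0.05 (edgeR's quasi-likelihood test with Benjamini-Hochberg adjustment over all genes tested). Over all genes tested, 17.3% were lower and 19.3% were higher, 36.6% in either direction. The members' shares were 32.6% lower and 4.65% higher. Most of the changes were small. The median log2 fold change was -0.17 for the members against -0.0081 for all genes tested, and 3 members also changed by 1 or more on the log2 scale, all of them lower (1.3% of all genes were lower to this degree and 1.62% higher). For 28 of the 43 members, and for 33.5% of all genes, neither knockdown library reached the lower control library. The log2 fold change was negative for 32 of the 43, against 51.2% of all genes, and 4 members had both knockdown libraries above both controls, against 32.8%. DESeq2 gave no adjusted p for 8 members. Of the rest, 8 were lower and 2 higher, against 10.9% and 15.5% of the 13260 genes with an adjusted p. Without siControl replicate 2, the median log2 fold change was -0.14 for the members and -0.0015 for all genes. In bulk RNA, fewer cells that express a gene and less RNA of it per cell cannot be told apart.

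**Figure D2:**
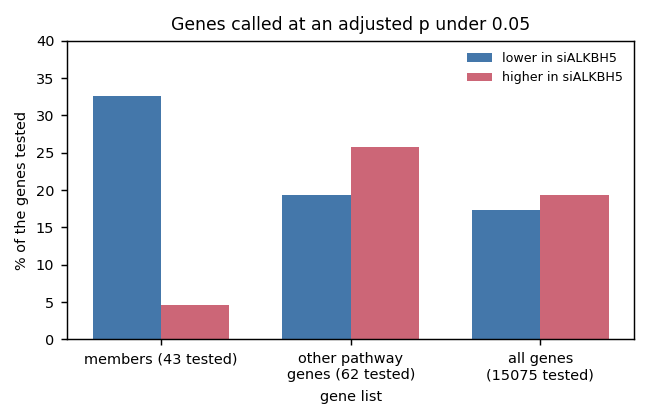
Share of the genes tested that were lower or higher in siALKBH5 at an adjusted p under 0.05, for the members, the other genes of the interferon pathway and all genes. Among the members 32.6% were lower and 4.65% higher, among all genes 17.3% were lower and 19.3% higher.

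**Figure D3:**
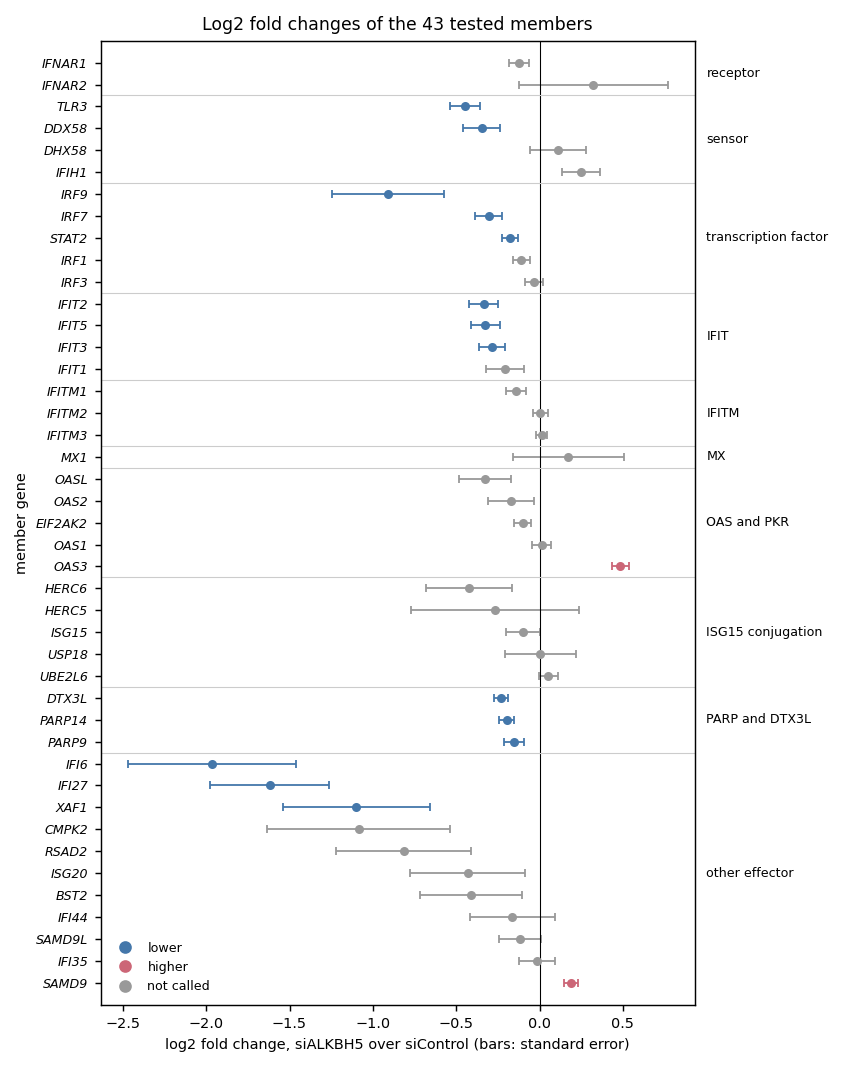
Log2 fold changes of the 43 tested members by role, siALKBH5 over siControl, with bars for the standard error (2 libraries per group). All 5 transcription factors, all 4 IFIT genes and all 3 genes of the PARP group lie below 0, as do 51.2% of all genes tested. OAS3 at 0.48 stands to the right, and the genes with the largest falls, IFI6, IFI27 and XAF1, have the widest bars among the called genes.

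The receptor subunits did not pass the test. IFNAR1 was counted 792 and 931 times in siControl and, in siALKBH5, 857 and 770 times, which is 50.4 ± 1.83 and 46.3 ± 0.641 CPM (SD, n = 2), and its log2 fold change was -0.12 with a standard error (SE) of 0.06 (adjusted p = 0.11). IFNAR2 was counted 13 and 14 times in siControl and, in siALKBH5, 22 and 13 times, and its log2 fold change of 0.32 had an SE of 0.45 (adjusted p = 0.62). Other annotated genes, chiefly AP000295.1, share 83.2% of the exon bases of IFNAR2, so its count is uncertain.

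Of the sensors of double-stranded RNA, 2 were lower and 2 did not pass the test (17.3% of all genes tested were lower). TLR3, the endosomal sensor (chromosome 4 from 186069152 to 186088069 on GRCh38), was at 25.4 and 27.9 CPM in siControl and at 20.7 and 18.4 CPM in siALKBH5. Both knockdown libraries were thus below both controls, at 73.3% of the control mean, and the log2 fold change was -0.45 (SE 0.09, adjusted p = 0.00017). DDX58, which encodes the cytosolic sensor RIG-I (chromosome 9 from 32455705 to 32526324), was at 16.1 and 17.7 CPM in siControl and at 14.3 and 12.2 CPM in siALKBH5. Its log2 fold change was -0.35 (SE 0.11, adjusted p = 0.015), and it did not pass the test without siControl replicate 2 (-0.28, adjusted p = 0.14), without siALKBH5 replicate 2 (-0.24, adjusted p = 0.16) or with DESeq2 (-0.34, adjusted p = 0.091).

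The other cytosolic sensors had higher means in siALKBH5 and did not pass the test. IFIH1, which encodes MDA5, a sensor of long double-stranded RNA, was at 12.2 and 13.3 CPM in siControl and at 15.4 and 14.9 CPM in siALKBH5. The libraries did not overlap, yet the log2 fold change of 0.25 (SE 0.11) had an adjusted p of 0.090. DHX58, which encodes LGP2, a regulator of both sensors, was at 5.52 and 5.45 CPM in siControl and at 6.05 and 5.77 CPM in siALKBH5, at a log2 fold change of 0.11 (SE 0.17, adjusted p = 0.66).

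All 5 transcription factors of the list had a mean below that of siControl, with no overlap of the libraries, and 3 passed the test. Over all genes tested, 33.5% had both knockdown libraries below both controls and 17.3% were called lower. For IRF3 the gap was slight, with siControl replicate 2 at 59.47 CPM and siALKBH5 replicate 2 at 59.43 CPM. IRF7, the factor that amplifies interferon production (chromosome 11 from 612553 to 615999), was at 29.7 and 31.5 CPM in siControl and at 24.5 and 25.1 CPM in siALKBH5. The log2 fold change of IRF7 was -0.31 (SE 0.08, adjusted p = 0.0026). STAT2 (chromosome 12 from 56341597 to 56360155) was at 75.1 and 76.5 CPM in siControl and at 67.2 and 66.7 CPM in siALKBH5, so the libraries of a group lay close together. Its log2 fold change was -0.18 (SE 0.05, adjusted p = 0.0046), and the adjusted p was 0.052 with DESeq2.

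IRF9, the DNA-binding partner of STAT2 (chromosome 14 from 24161053 to 24166565), was counted 32 and 45 times in siControl and, in siALKBH5, 22 and 20 times. This is 53.3% of the control mean, at a log2 fold change of -0.91 (SE 0.33, adjusted p = 0.031). The call was lost without siControl replicate 2 (-0.73, adjusted p = 0.24), without siALKBH5 replicate 1 (-0.88, adjusted p = 0.12), without siALKBH5 replicate 2 (-0.93, adjusted p = 0.084) and with DESeq2 (-0.91, adjusted p = 0.14). The gene AL136295.5 shares 48.4% of the exon bases of IRF9, so its count is uncertain. AL136295.5 itself had 18 and 14 counts in the controls and 7 and 14 after knockdown. IRF1, a factor induced by interferon-gamma, was at 74.1 and 76.3 CPM in siControl and at 69.0 and 70.5 CPM in siALKBH5 (log2 fold change -0.11, adjusted p = 0.085, and -0.13 with an adjusted p of 0.037 when scaled by library size only). IRF3, which is activated by phosphorylation rather than induced, was at 60.5 and 59.5 CPM in siControl and at 57.7 and 59.4 CPM in siALKBH5 (log2 fold change -0.03, adjusted p = 0.67).

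The IFIT genes, whose products bind viral RNA and block its translation, lie side by side on chromosome 10 between 89283694 and 89421001. All 4 had lower CPM in each knockdown library than in each control, and 3 passed the test. Over all genes tested, these shares were 33.5% for the libraries and 17.3% for lower calls. IFIT2 was at 27.3 and 32.9 CPM in siControl and at 23.7 and 24.2 CPM in siALKBH5, at a log2 fold change of -0.33 (SE 0.09, adjusted p = 0.0025). The genes AL353751.1 and LIPA share 10.3% of the exon bases of IFIT2. IFIT3 was at 35.3 and 32.8 CPM in siControl and at 28.4 and 27.3 CPM in siALKBH5 (log2 fold change -0.29, SE 0.08, adjusted p = 0.0033). IFIT5 was at 25.3 and 27.1 CPM in siControl and at 20.2 and 21.7 CPM in siALKBH5 (log2 fold change -0.33, SE 0.09, adjusted p = 0.0034).

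The 3 genes stood at similar fractions of control, between 79.6% and 81.9%. IFIT1 differed by -0.21 on the log2 scale (SE 0.11) and did not pass the test (adjusted p = 0.16). Each of the 3 calls was lost without a particular control library. Without siControl replicate 2, IFIT2 had a log2 fold change of -0.19 (adjusted p = 0.18) and IFIT5 of -0.27 (adjusted p = 0.057), and without siControl replicate 1, IFIT3 had a log2 fold change of -0.23 (adjusted p = 0.061).

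The PARP9, DTX3L and PARP14 genes lie together on chromosome 3 between 122527924 and 122730840, and all 3 were lower (17.3% of all genes tested were). DTX3L is a ubiquitin ligase that works in a complex with PARP9, and PARP14 is another ADP-ribosyltransferase induced by interferon. DTX3L was at 124 and 132 CPM in siControl and at 109 and 110 CPM in siALKBH5, at a log2 fold change of -0.23 (SE 0.04, adjusted p = 3.3e-05). PARP14 was at 96.3 and 100.3 CPM in siControl and at 87.3 and 84.1 CPM in siALKBH5 (log2 fold change -0.20, SE 0.04, adjusted p = 0.00066). These are falls to 85.3% and 87.2% of control.

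PARP9 was at 56.0 and 56.6 CPM in siControl and at 51.3 and 50.01 CPM in siALKBH5 (log2 fold change -0.15, SE 0.06, adjusted p = 0.036). Omission of any of the 4 libraries lost the call, with log2 fold changes from -0.17 to -0.13 and adjusted p-values from 0.076 to 0.17. DTX3L and PARP9 share 217 exon bases on opposite strands, which is 3.7% of DTX3L and 2.43% of PARP9.

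The 2'-5'-oligoadenylate synthetases make the second messenger that activates RNase L. OAS1, OAS3 and OAS2 follow each other on chromosome 12 between 112906777 and 113011723, and OAS3 alone passed the test. OAS3 (chromosome 12 from 112938352 to 112973249) was at 57.6 and 58.1 CPM in siControl and at 79.9 and 82.0 CPM in siALKBH5. OAS3 thus rose to 140% of control, or by 0.48 on the log2 scale (SE 0.05, adjusted p = 1.8e-09), and leaving out any library gave values from 0.47 to 0.51. OAS1 was at 52.1 and 54.9 CPM in siControl and at 55.6 and 52.3 CPM in siALKBH5, a log2 fold change of 0.01 (SE 0.06). OAS2 and OASL had log2 fold changes of -0.17 and -0.33 (adjusted p = 0.37 and 0.10).

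Within a library, the count of OAS3 was 1.11 and 1.06 times that of its neighbour OAS1 in siControl and 1.44 and 1.57 times in siALKBH5. This ratio needs no scaling of the libraries, and its groups did not overlap. Lack of overlap was not particular to this pair. The ratios of IFIT1 to IFIT5 and of PARP9 to DTX3L did not overlap either, whereas those of IFIT2 to IFIT3 did. Against OAS2 on its other side, OAS3 was 6.44 and 6.01 times as high in counts in siControl and 9.63 and 9.93 times in siALKBH5. EIF2AK2, which encodes the kinase PKR, did not pass the test (log2 fold change -0.10, SE 0.05, adjusted p = 0.13).

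**Figure D4:**
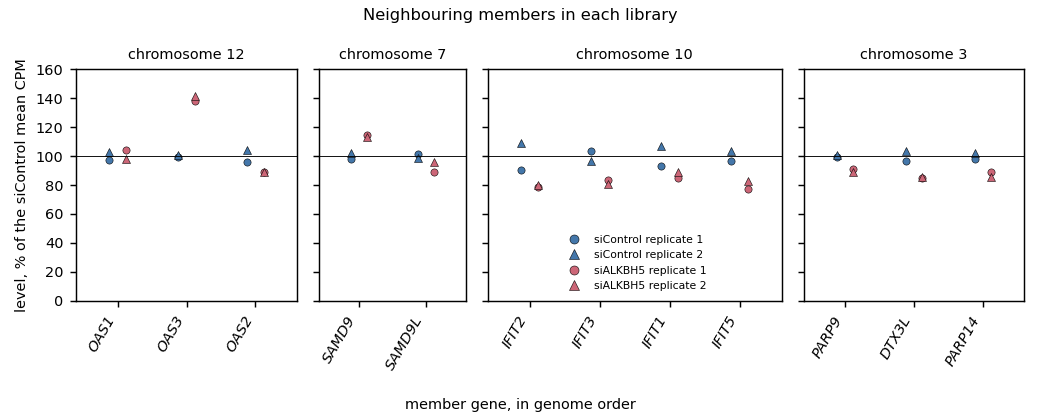
Level of members that lie next to each other in the genome, as % of the siControl mean CPM of each gene, with 1 point per library. OAS3 at 140% on average lies above its neighbours OAS1 and OAS2, SAMD9 above SAMD9L, whereas the genes of the IFIT and the PARP9-DTX3L-PARP14 regions all lie under 100% in siALKBH5.

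SAMD9 was the other higher member. SAMD9 and its paralog SAMD9L, both antiviral and growth-restricting factors, lie on chromosome 7 between 93099513 and 93148369. SAMD9 was at 104 and 108 CPM in siControl and at 121 and 120.0 CPM in siALKBH5, at a log2 fold change of 0.19 (SE 0.04, adjusted p = 0.00042). SAMD9L differed by -0.12 on the log2 scale (SE 0.12, adjusted p = 0.51). The count of SAMD9 was 8.8 and 9.37 times that of SAMD9L in siControl and 11.7 and 10.7 times in siALKBH5. These groups did not overlap, which also held for other neighbouring pairs.

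The largest falls were in genes of low level. IFI27, a mitochondrial and nuclear membrane protein of strongly interferon-responsive expression (chromosome 14 from 94104836 to 94116698), was counted 38 and 46 times in siControl and, in siALKBH5, 16 and 12 times. It was at 2.36 and 2.56 CPM and then at 0.857 and 0.729 CPM, or 32.3% of control, and the log2 fold change was -1.62 (SE 0.36, adjusted p = 0.00046). Leaving out any library gave values from -1.74 to -1.51, all of them called, as was the DESeq2 value.

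IFI6, a related membrane protein that counters apoptosis (chromosome 1 from 27666061 to 27672218), was counted 30 and 20 times in siControl and, in siALKBH5, 4 and 9 times. The log2 fold change was -1.97 (SE 0.50, adjusted p = 0.0023), with adjusted p-values of 0.092 without siControl replicate 1 (-1.56) and 0.071 without siALKBH5 replicate 1 (-1.42). XAF1, a pro-apoptotic antagonist of XIAP (chromosome 17 from 6755447 to 6775647), was counted 22 and 22 times in siControl and, in siALKBH5, 10 and 11 times. Its log2 fold change was -1.10 (SE 0.44) and its adjusted p of 0.049 was just under the threshold, and omission of any library lost the call, with values from -1.26 to -0.94 and adjusted p-values from 0.13 to 0.26. PRAL, on the opposite strand, shares 38.3% of the exon bases of XAF1 and had 1 count at most.

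**Figure D5:**
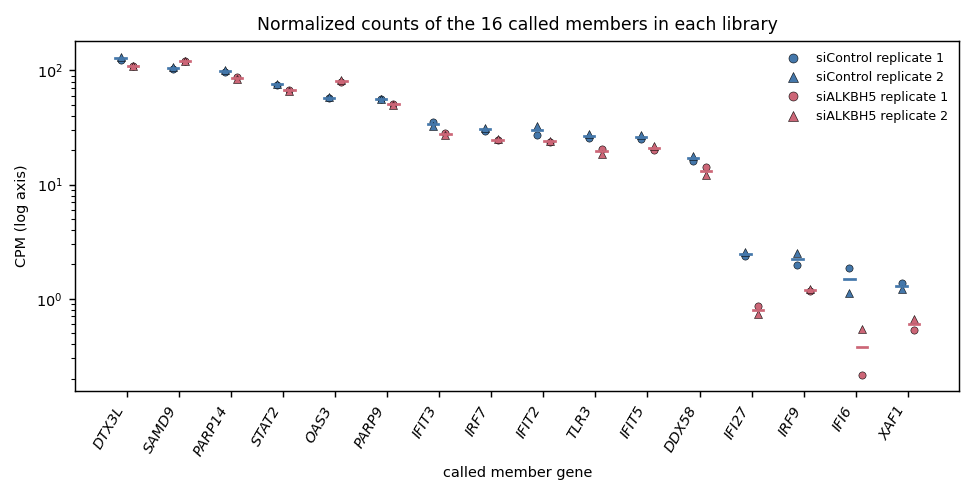
CPM (log axis) of the 16 called members in each library, with circles for replicate 1, triangles for replicate 2 and short lines for the mean of each group. OAS3 and SAMD9 are higher in siALKBH5 and the other 14 are lower, and the 4 genes under 3 CPM (IFI27, IRF9, IFI6 and XAF1) show the widest separation and, for IFI6, the widest spread within a group.

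CMPK2 and RSAD2 form another divergent pair on chromosome 2, between 6840570 and 6898239, and encode a mitochondrial nucleotide kinase and viperin. CMPK2 was counted 18 and 11 times in siControl and, in siALKBH5, 7 and 7 times, and RSAD2 had 22 and 26 and then 16 and 12. Both had lower counts in each knockdown library, with log2 fold changes of -1.09 (SE 0.55) and -0.82 (SE 0.40), and neither passed the test (adjusted p = 0.12 for both).

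The remaining members did not pass the test. In the IFITM group, IFITM3 and IFITM2 had log2 fold changes of 0.01 each (SE 0.03 and 0.05), and IFITM1 had -0.14 (SE 0.06, adjusted p = 0.070, and -0.16 with an adjusted p of 0.035 when scaled by library size only). Other genes share 32.5% of the exon bases of IFITM1, 22.7% of those of IFITM2 and 21.3% of those of IFITM3, and the 3 paralogs are similar in sequence, so the split of reads between them is uncertain. In the ISG15 pathway, UBE2L6 and the ligases HERC5 and HERC6 attach ISG15 to proteins and USP18 removes it. In this group 0 of 5 genes passed the test, and 36.6% of all genes tested were called in either direction. The number was also 0 at an unadjusted p under 0.05. It was 0 with DESeq2 too, which gave HERC5 no adjusted p. ISG15 was at 18.4 and 18.3 CPM in siControl and at 16.4 and 17.9 CPM in siALKBH5 (log2 fold change -0.10, SE 0.10), UBE2L6 differed by 0.05 on the log2 scale (SE 0.06) and USP18 by 0.0047 (SE 0.21). The ligases had few counts and wide errors. HERC6 was counted 44 and 62 times in siControl and 40 and 41 times in siALKBH5 (log2 fold change -0.42, SE 0.26). HERC5 had 19 and 9 counts and then 11 and 13 (log2 fold change -0.27, SE 0.50). MX1 was counted 23 and 32 times in siControl and, in siALKBH5, 39 and 25 times, with overlapping libraries. BST2 (tetherin), ISG20, IFI44 and IFI35 had log2 fold changes from -0.43 to -0.02, with adjusted p-values of 0.31 or more.

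The rest of the interferon pathway was read from a list of 82 other genes, of which 62 had enough counts for the test. In this list 16 genes were higher and 12 lower. These are 25.8% higher and 19.4% lower, near the 19.3% and 17.3% of all genes, with a median log2 fold change of -0.03. When scaled by library size only, 14 genes of the list were higher and 16 lower. Under that scaling the median of all genes tested was -0.030, against -0.0081 in the main fit. The shares of all genes called under it are not given here. The difference between the lists was not tested. Of the 13 interferon genes themselves, 10 had 0 counts in all 4 libraries, among them IFNB1 and the keratinocyte interferon IFNK (a count of 0 allows up to 3 counts, for counting error only). IFNE was the only one tested, counted 19 and 22 times in siControl and, in siALKBH5, 22 and 18 times (adjusted p = 0.90).

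Downstream of the receptor, the kinase TYK2 was at 55.5 and 59.2 CPM in siControl and at 50.8 and 50.7 CPM in siALKBH5 (log2 fold change -0.18, SE 0.06, adjusted p = 0.016), and JAK1 did not pass the test (log2 fold change -0.08, adjusted p = 0.13). The genes of the list that changed by at least 0.5 on the log2 scale were effectors. TRIM22, an antiviral ubiquitin ligase, was at 38.1 and 36.5 CPM in siControl and at 16.9 and 17.9 CPM in siALKBH5 (log2 fold change -1.10, SE 0.08, adjusted p = 6.8e-13), and PARP10 and GBP2 fell by 0.56 and 0.53 on the log2 scale (adjusted p = 2.7e-07 and 5.1e-06).

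The cytidine deaminases APOBEC3B and APOBEC3F, which mutate viral DNA, were higher. APOBEC3B was at 23.8 and 23.0 CPM in siControl and at 43.5 and 45.9 CPM in siALKBH5, 191% of control (log2 fold change 0.93, SE 0.07, adjusted p = 2.8e-12). APOBEC3F differed by 0.75 on the log2 scale (SE 0.12, adjusted p = 3.6e-06).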

How the data were processed

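Poly-A RNA of HaCAT cells was sequenced, 2 libraries per group. Per the labels and the submitters' processing notes, the tools were CASAVA, HISAT2 2.0.5, featureCounts 1.5.0-p3 and DESeq2 1.20.0, on hg38. The authors deposited raw counts per gene, FPKM scaled within each table, and columns of their own comparisons. The deposited FPKM were not used. The log2 ratios and the p-values deposited beside them each set 1 knockdown library against 1 control library, and were left out. Strand and the treatment of reads in overlapping genes are not given in the sources used here, so reads of overlapping or antisense genes cannot be told apart.

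Counts were filtered by filterByExpr, scaled by TMM and tested across 15075 genes by edgeR's quasi-likelihood test (edgeR 4.0.16, R 4.3.3) without covariates, with Benjamini-Hochberg adjustment. The standard error is the size of the log2 fold change divided by the square root of F. FPKM in the text were computed from the counts, the listed lengths and the library totals. By the rule for named genes, called members, receptors, sensors, transcription factors and members at 3 counts or fewer were given by library and other members by range and count. Of the other pathway genes, those called and changed by 0.5 or more on the log2 scale were named, beside JAK1, TYK2, IFNB1, IFNK and IFNE, and another gene of that rule is not reported here. Values of other uncalled members, such as CMPK2, RSAD2, MX1, ISG15 and OAS1, were chosen after they were seen. DESeq2 1.42.0, other scalings and filters, a replicate block and leaving out each library were alternatives. In data simulated from the mean levels and library sizes here (15022 genes), edgeR recovered 65 of 100 genes changed by 0.5 on the log2 scale. It recovered 84 of 99 changed by 1, with 11 false calls. The simulation gave all genes the same spread beyond counting error (coefficient of variation 0.025) and changed 200 of them. In the real data 36.6% of genes were called and the spread may differ between genes, so these rates need not hold there. An exact permutation test of 2 against 2 libraries cannot go below 0.333, so none is given. Intervals and floors of 3 counts cover counting error only. The members and lists were chosen with earlier results of these data known.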

Additional observations from a re-analysis of the deposited data

How the results depend on the processing

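Depth limits the genes of low level: 17 of the 45 members had a mean of under 100 counts in siControl, among them IRF9, IFI6, IFI27 and XAF1. Of the 16 called members, 7 (DTX3L, IFI27, IRF7, OAS3, PARP14, SAMD9 and TLR3) kept their call under every alternative run, and 0 reversed. DESeq2 gave 8 lower members, all 8 lower with edgeR too, 1 member past both thresholds and 7 lower genes in the other pathway list, and it gave no adjusted p for 8 members, IFI6 and XAF1 among them. With 1 library left out, where a lone sample is assumed to vary like the other group, lower members numbered 8 to 10, members past both thresholds 1 to 2 (1 without siALKBH5 replicate 1), other pathway genes 12 to 14 higher and 9 to 12 lower, and the median log2 fold change of the members ranged from -0.19 to -0.14. Higher members numbered 2 under each alternative at the adjusted threshold, and at an unadjusted p under 0.05 there were 3 higher and 17 lower. Without filter, PARP9 and XAF1 had adjusted p-values of 0.079 and 0.053. With 1 library left out, the median of all genes ranged from -0.012 to -0.0015. Apart from DESeq2, the shares of all genes called under the alternatives are not given here, so these counts were not set against them. The causes were not tested.

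The labels give the replicates no pairing, and deviations of same-numbered libraries correlated at 0.0337 over 15075 genes. With the number as a replicate block, 2 members were higher and 14 lower, 3 of them past both thresholds, and the other list had 17 higher and 14 lower genes. The share of all genes called with the block is not given here. The median was -0.17 for the members and -0.0080 for all genes, and the log2 fold change of ALKBH5 was -0.85.

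Among the members, the sign changed under an alternative only for genes that were not called. With library size only, the log2 fold changes were -0.017 for IFITM2, -0.010 for IFITM3, -0.0096 for OAS1 and -0.017 for USP18. With 1 library left out they ranged from -0.0018 to 0.57 for IFNAR2, from -0.021 to 0.037 for IFITM2, from -0.0020 to 0.029 for IFITM3, from -0.081 to 0.38 for MX1, from -0.031 to 0.056 for OAS1, from -0.78 to 0.45 for HERC5, from -0.072 to 0.087 for USP18 and from -0.080 to 0.050 for IFI35.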
